A study of Sus scrofa with 2 samples.

Results

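Circular RNAs (circRNAs) that were well counted in backfat of both castrated and intact male pigs are described here. They were chosen by a count rule, at least 10 reads in the castrated group and at least 10 reads in the intact group, and the rule kept 551 of the 7869 circRNAs listed by the authors (7.002%). Backfat is the subcutaneous adipose tissue along the back. It was taken at 300 days of age from Huainan pigs, a Chinese breed, on a standard diet with free access to water. The groups were 3 castrated males and 3 intact males, and the series holds 1 sample and 1 value per circRNA for each group. The sources used here do not say whether RNA of the 3 pigs was pooled or values were averaged. The spread between animals is therefore unknown, no test between groups could be made, and every interval given covers counting error only.

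A circRNA is formed when the spliceosome joins the end of an exon to the start of the same or an upstream exon, so that the RNA closes into a ring. The ring has no free ends and no poly(A) tail. It resists exonucleases, tends to outlive linear RNA from the same gene, and is kept in libraries made from total RNA after removal of ribosomal RNA, as these were. Few circRNAs have a known function, and described roles include binding of microRNAs or proteins. The level of a circRNA depends on transcription of its host gene, on back-splicing and on how long it persists. The deposited table names each circRNA by a number under the prefix sus_scrofa_, left out here, and pairs it with reads alone. Host genes, positions and sequences are not described here for that reason.

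The castrated group had 46409 circRNA reads and the intact group 43589. A share is a circRNA's reads over the total of its group, and 1 read stood for 0.00215% in the castrated and 0.00229% in the intact group. A share ratio is the castrated share over the intact share. Shares of a group add up to the whole, so a larger share of some circRNAs leaves less for the rest, and a share says nothing about the amount of circRNA per cell. In bulk tissue, fewer cells of a type and less RNA per cell cannot be told apart.

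Markers of several cell types differed between the groups in the authors' deposited mRNA table, which holds called transcripts only. Castrated values exceeded intact ones for 51.6% of its 2645 transcripts and lay under them for 48.4%. Of 7 adipocyte markers 4 were listed and all 4 were higher in castrated pigs, summing to 1282 against 465 FPKM. CIDEC and PLIN1, genes of the adipocyte lipid droplet, were at 828 and 391.7 FPKM in castrated and at 306 and 153 FPKM in intact pigs, while ADIPOQ, FABP4 and LIPE were not listed. Of 6 fibroblast and progenitor markers 4 were listed and all were lower, at 1108 against 8371 FPKM in sum. Both listed macrophage markers of 6 were higher, at 190 against 11.4 FPKM, and so were 3 listed lymphocyte markers of 6, at 16.3 against 4.39 FPKM. Both listed erythroid markers of 4 were higher, at 1390 against 131 FPKM. Of 6 smooth muscle and pericyte markers 4 were listed, 1 higher and 3 lower, at 149 against 106 FPKM, and 1 of 4 endothelial markers was listed, at 4.48 against 13.1 FPKM. The part of these cell types in the circRNA shares was not tested.

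The well-counted circRNAs held a larger part of the castrated than of the intact circRNA reads. They took 28991 reads in the castrated group, 62.5% of its total (exact Clopper-Pearson 95% interval 62.0 to 62.9), and 24691 reads in the intact group, 56.6% (56.2 to 57.1). The gap of 5.82 percentage points came with 4 circRNAs. Together circ_0007255, circ_0000013, circ_0003828 and circ_0005309 held 9.74% of castrated and 2.47% of intact reads, a gap of 7.27 points. The other 547 held 52.7% of castrated and 54.2% of intact reads. These 4 were singled out after their values were seen, as those with the largest gaps, and no test is attached to them.

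Reads were also more concentrated in the castrated group. Its most-read circRNA held 3.26% of all reads, its 5 most-read 11.3% and its 10 most-read 15.9%. In the intact group the corresponding shares were 2.43%, 6.93% and 10.01%. Among the well-counted circRNAs, the 50 most-read held 30.6% of castrated and 23.7% of intact reads. Of the 10 most-read of them 7 were the same in both groups, and of the 50 most-read 36 were the same. CircRNAs left out by the rule were not ranked, so ranks given here and below hold among the well-counted ones.

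**Figure D1:**
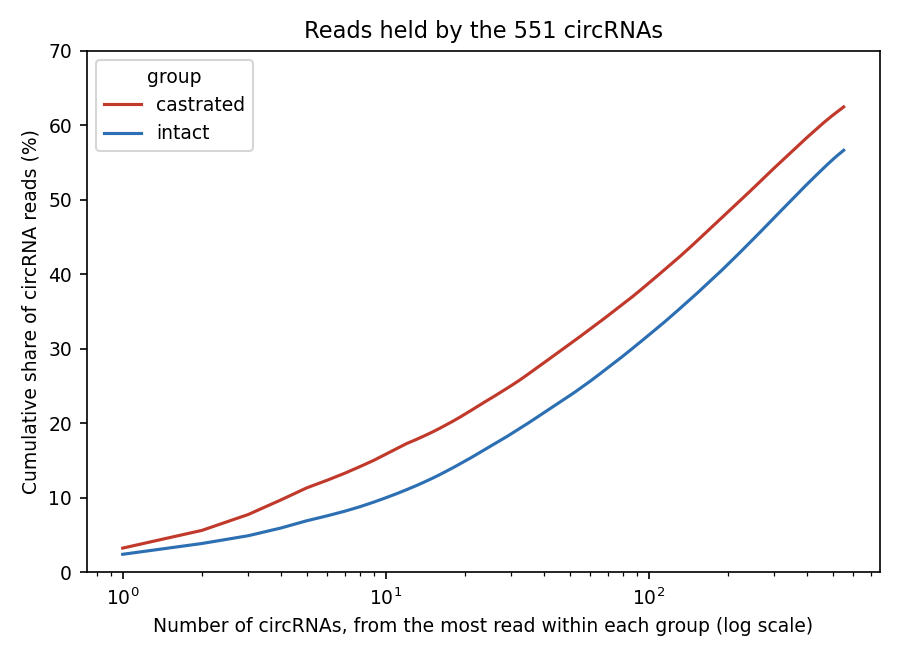
Cumulative share of circRNA reads (%, vertical axis) against the number of circRNAs, counted from the most read of the 551 within each group (horizontal axis, log scale), with 1 line per group. The castrated line lies above the intact line throughout and they end at 62.5% and 56.6% of reads for all 551 circRNAs.

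The circRNA with the most reads over both groups was circ_0007293, with 742 castrated and 1061 intact reads. It ranked 1 in the intact group and 5 in the castrated group. Its share was 1.60% against 2.43%, which is 1.52-fold lower in the castrated group (95% interval 1.38 to 1.67). Its neighbour in the numbering, circ_0007292, ranked 2 in the intact group and was also lower, with 485 castrated and 631 intact reads (share ratio 0.722, 0.640 to 0.814).

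The most-read circRNA of the castrated group was another one, and it was far lower in the intact group. circ_0007255 had 1515 castrated and 110 intact reads, ranking 1 in the castrated and 41 in the intact group. Its share was 3.26% against 0.252%, a ratio of 12.9 (10.7 to 15.8), which is the highest of the 551.

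Further circRNAs among those with the most reads were also higher in the castrated group. circ_0000013 had 1103 castrated and 295 intact reads, and its share of 2.38% against 0.677% gave a ratio of 3.51 (3.09 to 4.01). circ_0003828 had 913 against 216 reads, a ratio of 3.97 (3.42 to 4.63). circ_0005309 had 989 against 455 reads, a ratio of 2.04 (1.83 to 2.29). Its rank was 3 in both groups, whereas circ_0000013 stood at rank 2 against 6 and circ_0003828 at rank 4 against 15. For circ_0002488, with 414 castrated and 188 intact reads, the ratio was 2.07 (1.74 to 2.47). Smaller ratios were found for circ_0003770, with 437 against 263 reads (1.56, 1.34 to 1.83), and for circ_0001277, with 318 against 202 reads (1.48, 1.24 to 1.77). The ratio of circ_0006102, with 347 against 253 reads, was 1.29 (1.09 to 1.52), and with the total of the 551 circRNAs as denominator its interval held 1.

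The remaining circRNAs among the 15 with the most reads stood at or below a ratio of 1. circ_0006594 had 380 castrated and 454 intact reads, a ratio of 0.786 (0.684 to 0.903). circ_0002392, also with 380 castrated reads but 418 intact reads, was at 0.854 (0.741 to 0.983), a small difference whose interval held 1 under median-ratio scaling (0.777 to 1.03). Intervals of the last 3 held 1. These were circ_0002052 with 237 against 225 reads (0.989, 0.821 to 1.19), circ_0007296 with 222 against 219 reads (0.952, 0.786 to 1.15) and circ_0000385 with 206 against 233 reads (0.830, 0.685 to 1.01). For circ_0000385 the interval lay below 1 with the total of the 551 as denominator (0.621 to 0.912).

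Among the 8 highest share ratios, 5 belonged to circRNAs outside the 15 with the most reads. circ_0002620 had 195 castrated and 26 intact reads, a ratio of 7.04 (4.66 to 11.1), and stood at rank 257 in the intact and rank 23 in the castrated group. circ_0005842 had 120 against 24 reads (4.70, 3.01 to 7.61). The least counted of them, circ_0006288, had 49 against 10 reads, and its ratio of 4.60 carried the widest interval of the 8 (2.30 to 10.19). circ_0007253, numbered close to circ_0007255, had 241 castrated and 61 intact reads (3.71, 2.79 to 4.999). circ_0004765 had 89 against 23 reads (3.63, 2.28 to 6.03). All 8 intervals lay wholly above 2.

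The 8 lowest share ratios were smaller in size and mostly rested on fewer reads. circ_0002851, with 11 castrated and 42 intact reads, was 4.07-fold lower in the castrated group (2.06 to 8.76). circ_0002640, with 11 against 41 reads, was 3.97-fold lower (2.003 to 8.56). Better counted were circ_0001002 and circ_0001626. circ_0001002 had 51 castrated and 184 intact reads and was 3.84-fold lower (2.80 to 5.35), at rank 120 against rank 21. circ_0001626 had 79 against 241 reads and was 3.25-fold lower (2.51 to 4.24), at rank 70 against rank 11. A pair with consecutive numbers also belonged here. circ_0003710 had 18 against 62 reads (3.67-fold lower, 2.14 to 6.59) and circ_0003711 had 22 against 67 reads (3.24-fold lower, 1.98 to 5.51). circ_0001532, with 17 against 56 reads, was 3.51-fold lower (2.01 to 6.44), and circ_0000146, with 10 against 31 reads, was 3.30-fold lower (1.58 to 7.55). With the total of all listed circRNAs as denominator, the interval lay wholly past 2-fold for 6 of these 8. circ_0003711 and circ_0000146 were the exceptions.

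**Figure D2:**
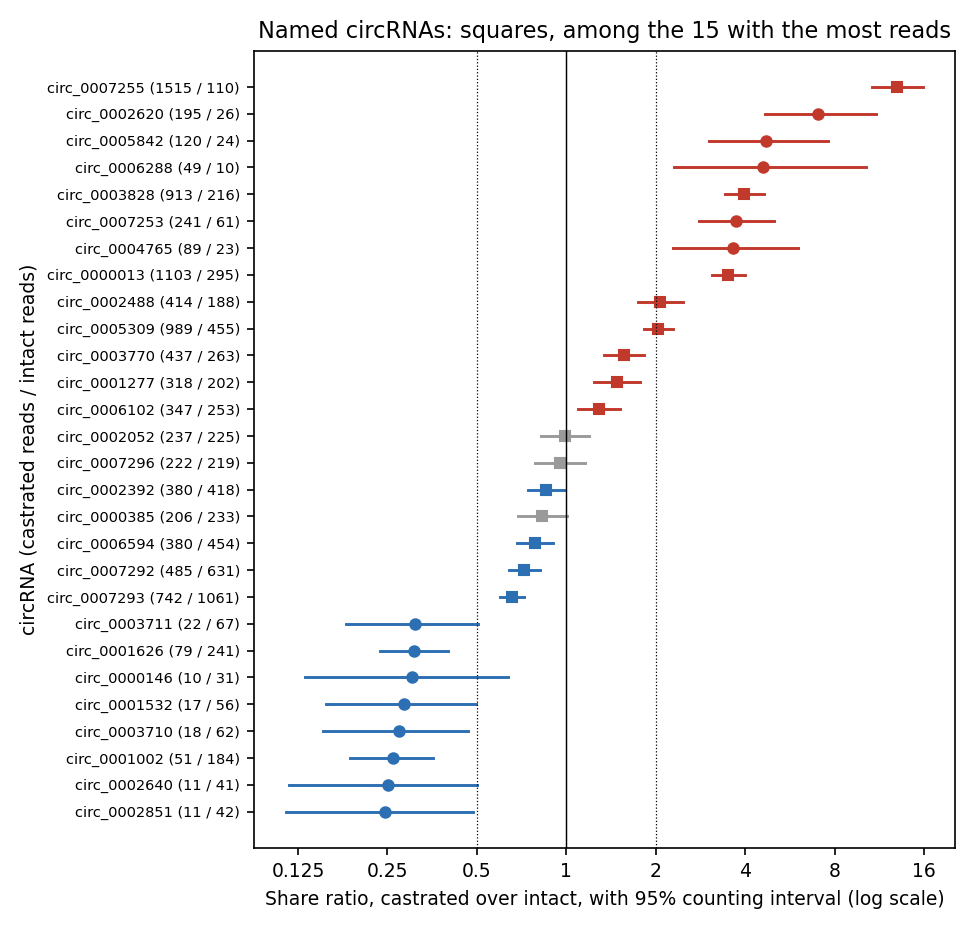
Share ratio, castrated over intact (horizontal axis, log scale), of the 28 circRNAs named by the rule, with bars for the exact 95% counting interval and reads per group at the left. Squares mark the 15 with the most reads, dotted lines a 2-fold ratio, and the ratios run from 0.246 for circ_0002851 to 12.9 for circ_0007255.

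The share ratio lay within 2-fold for 466 of the 551 circRNAs (84.6%), a range that the rule favours at low counts. It was at least 2-fold higher in the castrated group for 33 (5.99%) and at least 2-fold lower for 52 (9.44%). Over all 752 listed circRNAs with at least 20 summed reads, whatever their split, 11.3% were at least 2-fold higher and 18.1% at least 2-fold lower. Over the 3066 circRNAs with more than 3 reads in a group the figures were 10.4% and 21.4%. The count rule used these same reads and keeps out strongly split circRNAs, so the lower shares among the 551 are set by the rule. The quartiles of the ratio were 0.684, 0.954 and 1.31, with 256 ratios above 1 and 295 below 1. Of the 752, 45.2% had a ratio above 1. Across the 551 circRNAs the log2 shares of the groups correlated with Pearson's r = 0.81 and Spearman's rho = 0.73, a description over a range cut by the rule.

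The 95% interval lay apart from 1 for 162 circRNAs (29.4%), above it for 77 (14.0%) and below it for 85 (15.4%). Which side held more turned with the denominator, with 85 above and 72 below under median-ratio scaling, 83 and 75 without circ_0007255 in the totals, and 56 and 102 with the total of the 551. Among the 752 these shares were 16% above and 19.1% below, and among the 3066 they were 9.2% and 12.2%. The 77 held 25.8% of castrated and 11.1% of intact reads, with a median ratio of 1.92. The 85 held 10.8% of castrated and 19.1% of intact reads, with a median of 2.13-fold lower. The 77 had a median of 112 summed reads and the 85 a median of 83, against 40 for the 389 whose interval held 1. The 389 held nearly equal parts of the reads, 25.9% in the castrated and 26.4% in the intact group. The 77, 85 and 389 were sorted by these same ratios, so how their reads divide follows from the sorting. All 33 circRNAs at least 2-fold higher had an interval above 1, and 48 of the 52 at least 2-fold lower had one below 1. The whole interval lay past 2-fold for 9 circRNAs higher and 6 lower in the castrated group. This count was not made over all listed circRNAs, and the rule leaves out strongly split ones. It also depends on the denominator. Under median-ratio scaling the intervals of circ_0002851, circ_0002640 and circ_0001532 reached within 2-fold (upper bounds 0.510, 0.523 and 0.522). With the total of the 551, the interval of circ_0003711 lay wholly past 2-fold (upper bound 0.459).

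**Figure D3:**
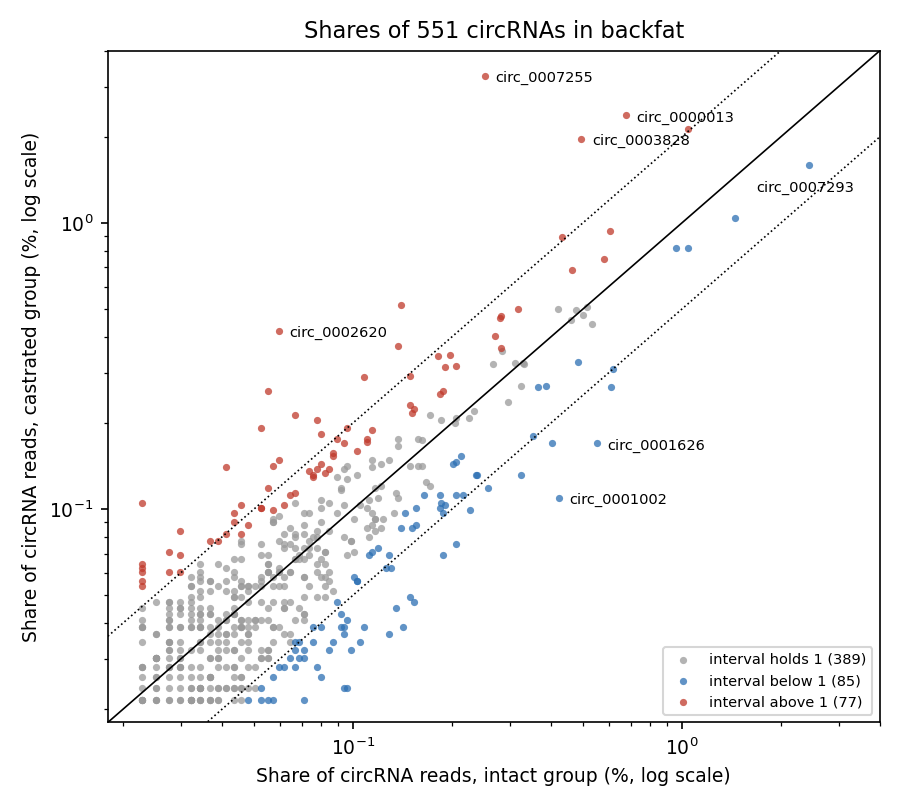
Share of circRNA reads (%, log scales) in the castrated group (vertical axis) against the intact group (horizontal axis), 1 point per circRNA, coloured by where the exact 95% counting interval of the share ratio lies. The solid line marks equal shares and the dotted lines a 2-fold ratio, with 77 intervals above 1, 85 below 1 and 389 that hold 1.

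By abundance, counted as reads summed over both groups, the median share ratio of the 551 circRNAs lay near 1 at every level, while over all listed circRNAs it was lower at the lowest level. The median log2 of the 551 ratio was -0.09 for the 91 circRNAs with 20 to 29 summed reads and -0.09 for the 180 with 30 to 49. It was -0.03 for the 159 with 50 to 99, 0.02 for the 71 with 100 to under 200 and 0.16 for the 50 with 200 or more. Over all listed circRNAs, whatever their split, the medians from the lowest level up were -0.45, -0.09, -0.01, 0.06 and 0.25. The rule bounds the ratios of the lowest level, so its median among the 551 is partly set by the rule. The medians of the 551 differ by less than the middle range within each level, since the upper minus the lower quartile ran from 0.70 at 20 to 29 reads to 1.16 at 100 to under 200 reads. With the total of the 551 circRNAs as denominator every log2 ratio is lower by a shift of -0.14, and the medians of all levels except the highest were then negative.

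Summed shares differed most between the groups at the highest level. The 50 circRNAs with 200 or more summed reads held 30.1% of castrated and 23.1% of intact reads, a pooled ratio of 1.30 (1.27 to 1.34). Without the 4 circRNAs with the largest gaps, the other 46 held 20.4% and 20.7%, a pooled ratio of 0.987 (0.959 to 1.02) and a median log2 ratio of 0.02. The 4 were picked for the largest gaps towards the castrated group, so a lower ratio without them was fixed by that choice. With the total of all listed circRNAs as denominator, the interval of the pooled ratio lay under 1 at 3 of the 4 levels below. Median-ratio scaling shifts every log2 ratio by 0.068, and the total of the well-counted circRNAs shifts it by -0.141. Which of the pooled intervals lie under 1 therefore depends on the denominator, and a drop at lower levels cannot be read from them. From 100 to under 200 reads the summed shares were 10.7% and 10.4% (pooled ratio 1.03, 0.984 to 1.07), and from 50 to 99 reads 11.9% and 12.5% (0.955, 0.920 to 0.992). From 30 to 49 reads they were 7.33% and 7.92% (0.925, 0.882 to 0.970), and from 20 to 29 reads 2.41% and 2.71% (0.890, 0.819 to 0.967). Over all 256 listed circRNAs with 20 to 29 reads the pooled ratio was 0.830 (0.789 to 0.873).

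Intervals were narrower at higher levels. The upper bound of the interval was a median of 5.77 times the lower bound at 20 to 29 summed reads, 4.19 times at 30 to 49, 2.89 times at 50 to 99, 2.12 times at 100 to under 200 and 1.60 times at 200 or more. At 20 to 29 reads the rule allows log2 ratios from -1.02 to 0.84 only, and the lowest and highest values found were these limits. The interval lay apart from 1 for none of the 91 circRNAs there, an outcome fixed by the rule, since even these limits have intervals that hold 1. Over all 256 listed circRNAs of that level 24 lay above and 43 below 1 (26.2%). It lay apart for 9 higher and 20 lower of 180 at 30 to 49 reads (16.1%, against 26.9% of all listed), and for 25 higher and 29 lower of 159 at 50 to 99 (34.0%, against 36.4%). It was apart for 21 higher and 22 lower of 71 at 100 to under 200 reads (60.6%, against 61.1%), and for 22 higher and 14 lower of 50 at 200 or more (72.0%, against 72.5%). A 2-fold ratio was found for 10 of those 71 (6 higher, 4 lower), 14.1% against 15.3% of all listed. It was found for 14 of those 50 (8 higher, 6 lower), 28% against 29.4%. All listed circRNAs number 72 at 100 to under 200 reads and 51 at 200 or more, nearly the same sets as these 71 and 50. The near-equal shares at these levels were therefore fixed in advance. Among all 256 listed circRNAs with 20 to 29 reads, 32 were at least 2-fold higher and 69 at least 2-fold lower.

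**Figure D4:**
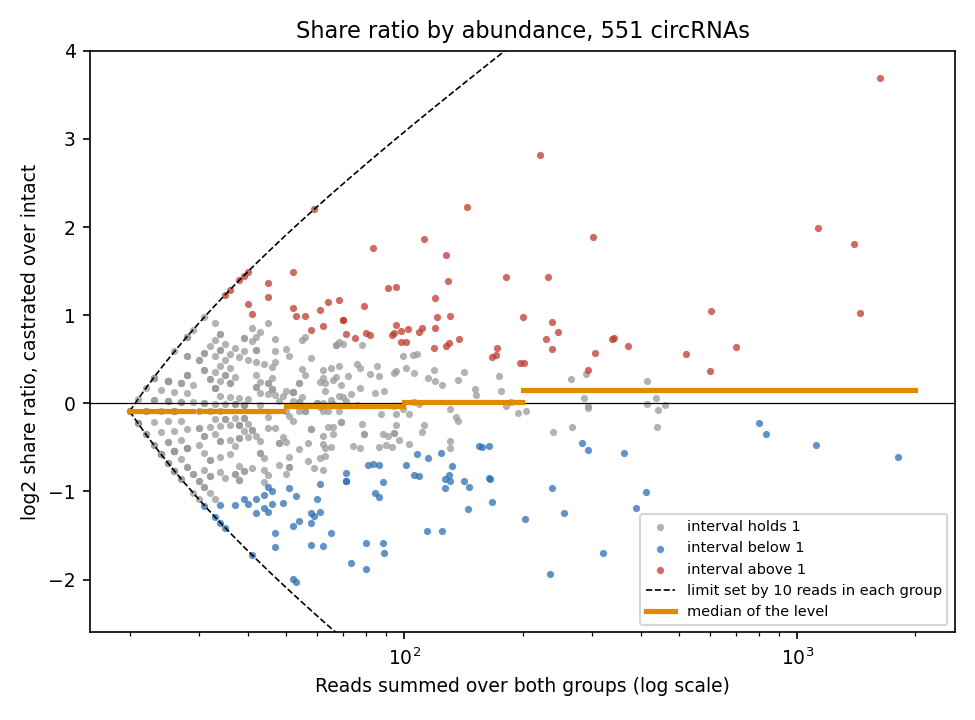
Log2 share ratio, castrated over intact (vertical axis), against reads summed over both groups (horizontal axis, log scale), 1 point per circRNA, coloured by where the exact 95% counting interval lies. Dashed lines show the ratios that 10 reads in each group allow and thick lines the median of each level, from -0.09 at 20 to 29 reads to 0.16 at 200 or more.

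Just inside the rule were 22 circRNAs with exactly 10 intact reads, whose castrated reads ran from 10 to 49 with a median of 17. In the other direction, 33 circRNAs had exactly 10 castrated reads, with 10 to 31 intact reads and a median of 14. Just outside were 33 with 9 intact reads and 10 to 73 castrated reads (median 12), and 35 with 9 castrated reads and 10 to 38 intact reads (median 14).

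The rule left out 201 circRNAs with at least 20 summed reads, 117 that were under 10 reads in the castrated group and 84 under 10 in the intact group. Of these, 11 had no intact read and 7 no castrated read. The most counted, named after their values were seen, were circ_0006268 with 275 castrated reads and circ_0005634 with 136, both at 0 in the intact group. A count of 0 allows up to 3 reads. With 0 read as 3, their shares were 86.1-fold and 42.6-fold higher in the castrated group, which are bounds and not measured ratios. circ_0007741 had 98 intact reads and none in the castrated group, a share 34.8-fold lower on the same reading. These values leave out counting error in the group that had reads. The table holds no value of 1 read and the smallest above 0 is 2, so a listed 0 may also stand for a single read.

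Share ratios were alike among well-counted circRNAs with consecutive identifier numbers. The sources used here do not say what the numbers follow, and this comparison was chosen after the data were seen. The 551 circRNAs formed 66 pairs with consecutive numbers, drawn from 120 circRNAs. In these pairs the log2 share ratios correlated with Pearson's r = 0.53 and Spearman's rho = 0.53, and 48 of 66 pairs (72.7%) had both ratios on the same side of 1. The median difference within a pair was 0.34 on the log2 scale. For the 206 pairs whose numbers differ by 2 to 5, r was 0.29 and rho 0.26, and for 582 pairs 6 to 20 apart r was 0.065 and rho 0.054. For 3135 pairs 21 to 100 apart, r was -0.011, with 49.7% on the same side and a median difference of 0.68. Pairs share circRNAs, the 2 libraries and their totals, so these are descriptions only. Without circ_0003710, the pair farthest from the rest was gone and r was 0.49 over 65 pairs.

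In 8 pairs of consecutive numbers both intervals lay apart from 1, and in all 8 they lay on the same side. Among them were circ_0007292 and circ_0007293, and circ_0003710 and circ_0003711, given above. circ_0002326 had 41 castrated and 68 intact reads (ratio 0.566) and circ_0002327 had 124 and 265 (0.439). circ_0000141 had 84 against 154 reads (0.512) and circ_0000142 had 52 against 80 (0.611). Ratios of the last pair in this direction were 0.543 for circ_0003469 and 0.568 for circ_0003470. Higher in the castrated group were both members of 3 pairs. circ_0007119 had 159 castrated and 79 intact reads (1.89) and circ_0007120 had 47 and 23 (1.92). circ_0002845 stood at 1.72 and circ_0002846 at 1.60, and circ_0001276 at 2.58 beside circ_0001277 at 1.48. Among pairs 21 to 100 apart with both intervals apart from 1, 130 of 275 (47.3%) lay on the same side. Pairs were not compared over all listed circRNAs, and the rule leaves out strongly split ones. Outside the rule, circ_0006277 and circ_0006279 had 20 and 32 castrated reads and no intact read. Between them, circ_0006278 had 36 intact reads and no castrated read, so these neighbours lay on opposite sides. circ_0006283, with 96 castrated reads and no intact read, lay on the same side as circ_0006284.

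**Figure D5:**
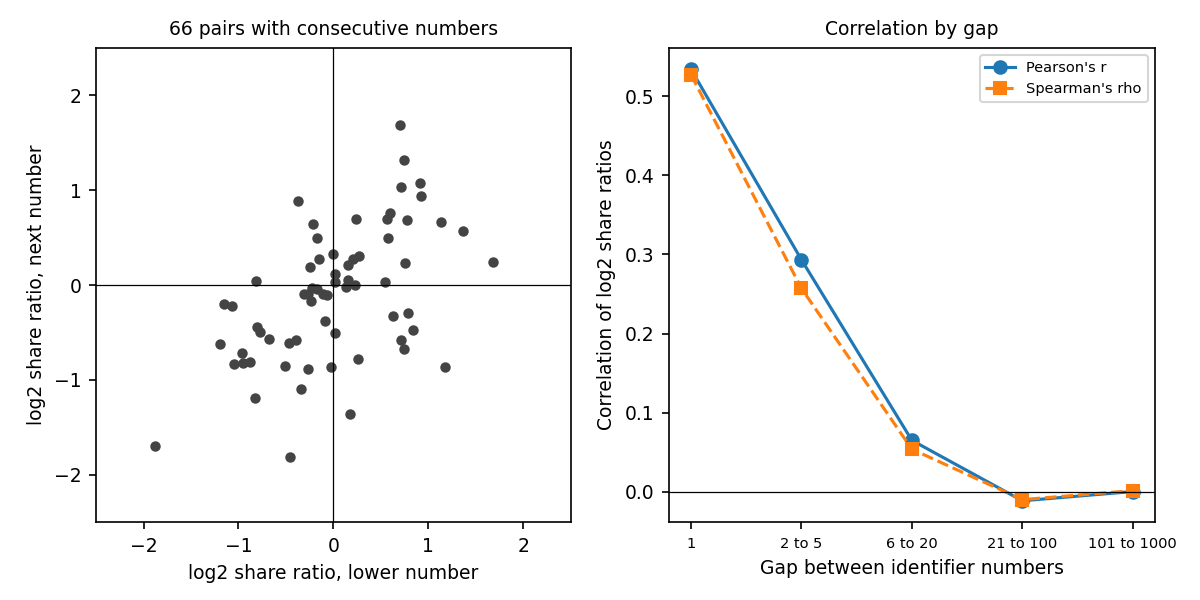
Left, log2 share ratio of a circRNA against that of the circRNA with the preceding number, for 66 pairs of consecutive numbers. Right, Pearson's r and Spearman's rho of log2 share ratios for pairs of circRNAs by the gap between their numbers, from 0.53 at a gap of 1 to near 0 at gaps of 21 or more.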

How the data were processed

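RNA of backfat was sequenced on an Illumina HiSeq instrument after ribosomal RNA removal and strand-specific library preparation, per the labels' protocols. TopHat2, Cufflinks and Sscrofa10.2 appear in the submitters' processing notes, with no role. The sources used here name neither the circRNA caller nor the kind of read it counted. Per the file headers, the authors deposited a read count per circRNA and group. Their columns headed TPM equal the count times 1000000 over the column total, and so are RPM as deposited. The deposited FPKM of the mRNA table were summed per gene name for markers alone.

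Shares used the total of all listed circRNAs. Each share ratio has an exact 95% interval (Clopper-Pearson), computed given the reads of both groups together, and a count of 0 was read as 3 counts. Since the reads carry no molecular identifiers, they may repeat a molecule, and intervals and floors reflect counting error alone. The calculation was tested on simulated data (Python 3.11.15, scipy 1.17.1). Named circRNAs were the 15 with the most summed reads and the 8 highest and 8 lowest share ratios. Further ones, in consecutive pairs or outside the rule, were named after their values were seen. The circRNAs, levels and marker lists were chosen with earlier results of these data known. Lists of host genes could not be applied, since the table pairs no gene with a circRNA. Other denominators, minimums, folds and intervals were tried as alternatives.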

Additional observations from a re-analysis of the deposited data

How the results depend on the processing

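No paired analysis was possible because each group has 1 sample, and leaving out a replicate was not possible for the same reason. Depth limits single circRNAs, the upper bound of an interval being a median of 5.77 times the lower at 20 to 29 summed reads.

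Changing the denominator kept all 4 counts within 1.5 times of the reported ones. With the total of the 551 circRNAs 26 were at least 2-fold higher and 72 lower, and 56 intervals lay above and 102 below 1. Median-ratio scaling gave 41 and 45, and 85 and 72, so which direction had more intervals apart from 1 depended on the denominator. Without circ_0007255 in the totals, a choice made after seeing the data, the counts were 39 and 47, and 83 and 75. Among the 28 named circRNAs none turned its direction where its interval lay apart from 1, while circ_0002392, circ_0006102 and circ_0000385 crossed between an interval that held 1 and one that did not.

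Counts followed the minimum. At 5 reads in each group (1094 circRNAs) 78 were at least 2-fold higher and 146 lower, and 133 intervals lay below 1. At 20 reads (272 circRNAs) 18 were higher and 16 lower, and 50 intervals lay below 1. At 20 summed reads whatever the split, 85 and 136 passed 2-fold, with 120 intervals above and 144 below 1. A fold of 1.5 gave 104 higher and 125 lower, and 99% intervals 49 above and 52 below 1. These sets differ in size by construction.

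Level medians (log2) with the total of the 551 as denominator were -0.23 from 20 and from 30 summed reads, -0.17 from 50, -0.12 from 100 and 0.015 from 200. Median-ratio scaling gave 0.039 from 50, 0.087 from 100 and 0.22 from 200, and totals without circ_0007255 gave 0.20 from 200. The highest minus the lowest level median was 0.25, and 0.17 with quartiles of summed reads as levels. Without circ_0007293, the circRNA with the most summed reads, the castrated share held was 61.9% and the intact share 55.6%. Without circ_0007255 the castrated share was 61.2%.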
